A study of Mus musculus with 2 samples.

Results

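The genes that encode the subunits of the AMPA receptor, Gria1, Gria2, Gria3 and Gria4, were followed through maps of open chromatin from mouse cerebral cortex. They are 4 of 21755 protein-coding genes annotated on chromosomes 1 to 19 and X. For each gene, all DNase peaks that overlapped the gene body or the 10 kb on either side of it were taken from the shorter of the deposited peak lists of each library, together with the footprints inside them. The tissue was the left cerebral cortex of 2 male mice of the hybrid strain B6CASTF1/J, aged 36 days, with 1 DNase-seq library per mouse. Both animals were of the same strain, sex and age, and nothing in the labels set one apart as treated, so they form 1 group and no comparison between conditions exists. They are called mouse 1 and mouse 2 here, after their replicate numbers. B6CASTF1/J mice carry 1 copy of each autosome from C57BL/6J and 1 from CAST/EiJ, and the alleles were not told apart here. Males hold a single X chromosome, so X-linked Gria3 has 1 allele in each mouse.

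AMPA receptors are ion channels opened by glutamate, and they carry most of the fast excitatory current at synapses of the brain. Each channel is assembled from subunits of this gene family in varying combinations. Channels that hold the edited form of the Gria2 product are nearly impermeable to calcium, Gria1 is known for its part in activity-dependent delivery of receptors to synapses, Gria3 is the X-linked member, and Gria4 is known from interneurons and the young brain. DNase I cuts DNA preferentially where nucleosomes are displaced, as at active promoters and enhancers. A peak marks such a stretch, and a footprint is a short interval within it that was cut less than its surroundings, as happens where a protein covers the DNA.

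The shorter lists held 72021 peaks in mouse 1 and 59150 in mouse 2. Peak height is the value of the peak in the deposited list, and it rose in whole steps that correspond to an inferred depth of 160 M cuts in mouse 1 and 145 M in mouse 2. Median heights were 1.18 and 0.963. Of the marker genes, all 4 of the excitatory neuron list had a promoter peak in both mice, while neither liver marker, Alb nor Ttr, had one in either. Of 3 inhibitory neuron markers, 2 had one in mouse 1 and 1 in mouse 2, of 3 astrocyte markers 1 and 0, of 3 oligodendrocyte markers 2 and 3, of 2 markers of oligodendrocyte precursors 1 and 1, and of 3 microglial markers 1 and 1. The tissue is a mixture of cell types, so fewer cells with an open site and a less open site in each cell cannot be told apart.

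The sequences on which the results turn are given first, read from the C57BL/6J reference (GRCm38.p6, the build of the files), with names that recur in the text. The first is the part of the Gria2 start site that matched RE1, the element bound by the repressor REST, which silences neuronal genes outside neurons. It is shown on the plus strand of chr3:80802984-80803013, opposite to the direction of the gene, and the capitals mark the match.
Gria2 start, RE1 match: tcgatTTTAGCACCGCGGACAGCGCtttgg
The next 4 lie in introns of Gria1 and are shown along the gene. Of these, 3 were picked because a pattern lay at least in part in a footprint of each mouse. The other is the highest peak of the gene in both mice. In these and in the remaining sequences, capitals mark the bases that lay in a footprint of both mice. The E-box site is chr11:57030521-57030740, the highest site chr11:57038881-57039140, the CTCF core site chr11:57310881-57311060, and the RFX sequence chr11:57313868-57314049.
Gria1 intron 2, E-box site: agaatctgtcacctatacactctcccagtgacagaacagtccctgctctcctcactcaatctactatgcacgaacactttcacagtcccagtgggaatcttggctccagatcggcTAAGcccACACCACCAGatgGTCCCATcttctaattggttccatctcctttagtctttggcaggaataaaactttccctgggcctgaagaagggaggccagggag
Gria1 intron 2, highest site: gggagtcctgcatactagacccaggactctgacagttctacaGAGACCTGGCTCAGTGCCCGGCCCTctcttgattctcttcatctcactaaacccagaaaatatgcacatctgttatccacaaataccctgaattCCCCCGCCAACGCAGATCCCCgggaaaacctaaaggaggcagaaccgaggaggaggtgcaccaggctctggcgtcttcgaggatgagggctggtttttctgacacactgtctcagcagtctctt
Gria1 intron 14, CTCF core site: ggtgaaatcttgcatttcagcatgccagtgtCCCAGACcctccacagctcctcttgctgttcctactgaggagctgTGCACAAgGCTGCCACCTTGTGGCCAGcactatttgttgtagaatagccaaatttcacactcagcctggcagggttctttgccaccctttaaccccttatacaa
Gria1 intron 14, RFX site: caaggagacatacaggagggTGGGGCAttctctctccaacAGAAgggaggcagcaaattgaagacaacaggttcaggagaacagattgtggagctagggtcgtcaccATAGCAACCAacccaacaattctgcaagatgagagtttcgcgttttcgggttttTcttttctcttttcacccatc
For Gria3, whose peaks were listed in 1 mouse at a time, the site just upstream of the gene (chrX:41400221-41400460) and a site in intron 5 (chrX:41573208-41573340) are shown along the gene.
Gria3 upstream site: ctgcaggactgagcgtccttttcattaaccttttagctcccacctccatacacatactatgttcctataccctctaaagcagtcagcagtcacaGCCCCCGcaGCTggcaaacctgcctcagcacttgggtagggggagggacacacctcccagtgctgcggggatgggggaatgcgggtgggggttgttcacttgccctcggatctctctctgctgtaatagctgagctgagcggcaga
Gria3 intron 5 site: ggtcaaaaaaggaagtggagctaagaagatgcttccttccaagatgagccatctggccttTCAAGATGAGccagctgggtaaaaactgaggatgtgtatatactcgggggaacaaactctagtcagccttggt
For Gria4 the site is the intronic one that was higher in mouse 2 than in mouse 1 (chr9:4639261-4639500), shown along the gene.
Gria4 intron 4, AP-1 site: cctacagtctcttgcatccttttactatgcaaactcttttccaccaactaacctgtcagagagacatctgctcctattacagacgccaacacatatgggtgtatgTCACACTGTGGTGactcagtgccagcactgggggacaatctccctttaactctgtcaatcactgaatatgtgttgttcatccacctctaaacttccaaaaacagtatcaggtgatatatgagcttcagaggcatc

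At Gria1 nearly all open sites were intronic, and at the other genes they were divided between the starts and the introns. In all there were 37 peaks in mouse 1 and 22 in mouse 2, which merged into 43 sites. Of these, 32 lay in introns, 10 came within 1 kb of an annotated start of the gene, 1 overlapped an exon of a retained-intron transcript of Gria2, and none lay in the 10 kb flanks alone. Gria1 accounted for 22 of the 32 intronic sites, Gria3 for 5, Gria4 for 3 and Gria2 for 2. Sites near a start had a median GC content of 58.0%, against 50.5% for the intronic sites, and 10 of the 43 sites held no CpG. Gria1 carried 23 of the sites, Gria3 9, Gria4 6 and Gria2 5. No other annotated gene had a start within 1 kb of any of the 43 sites or overlapped one.

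The mice had 15 sites in common, and 22 sites were listed in mouse 1 alone and 6 in mouse 2 alone. A peak counted as shared when it had 1 bp or more in common with a peak of the other animal. In mouse 1, 15 of 37 peaks were shared, 40.5% (95% Wilson interval 26.3% to 56.5%), against 62.5% of all its peaks. In mouse 2, 16 of 22 were shared, 72.7% (51.8% to 86.8%), against 76.7% of all its peaks. The interval of mouse 1 lay below the level of its library, and that of mouse 2 held the level of its own. These intervals take the peaks as independent, although 20 of the 37 in mouse 1 lay at Gria1, so they may be too narrow. The mean over the mice was 56.6% ± 22.8 (SD, n = 2). Both shares come from the same overlap of 2 lists, so they are not independent and this SD is no measure of spread between mice. Low peaks accounted for part of the count in mouse 1. Of its 37 peaks, 9 (24.3%) had a height under 0.5, against 8.65% of all its peaks. None of the 9 was shared, against 17.0% of all its peaks under that height. Without them 15 of 28 were shared, 53.6%, against 66.9% of all its peaks at or over that height. No interval was computed for that share, so it is not said to lie below the library. Absence from a list is not absence of cutting. Of the 22 sites of mouse 1 alone, 9 overlapped a peak of the longer list of mouse 2, and 3 of the 6 sites of mouse 2 alone overlapped one of mouse 1. The same shares over all sites of 1 mouse alone are not given here, so these counts cannot be called high or low.

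**Figure D1:**
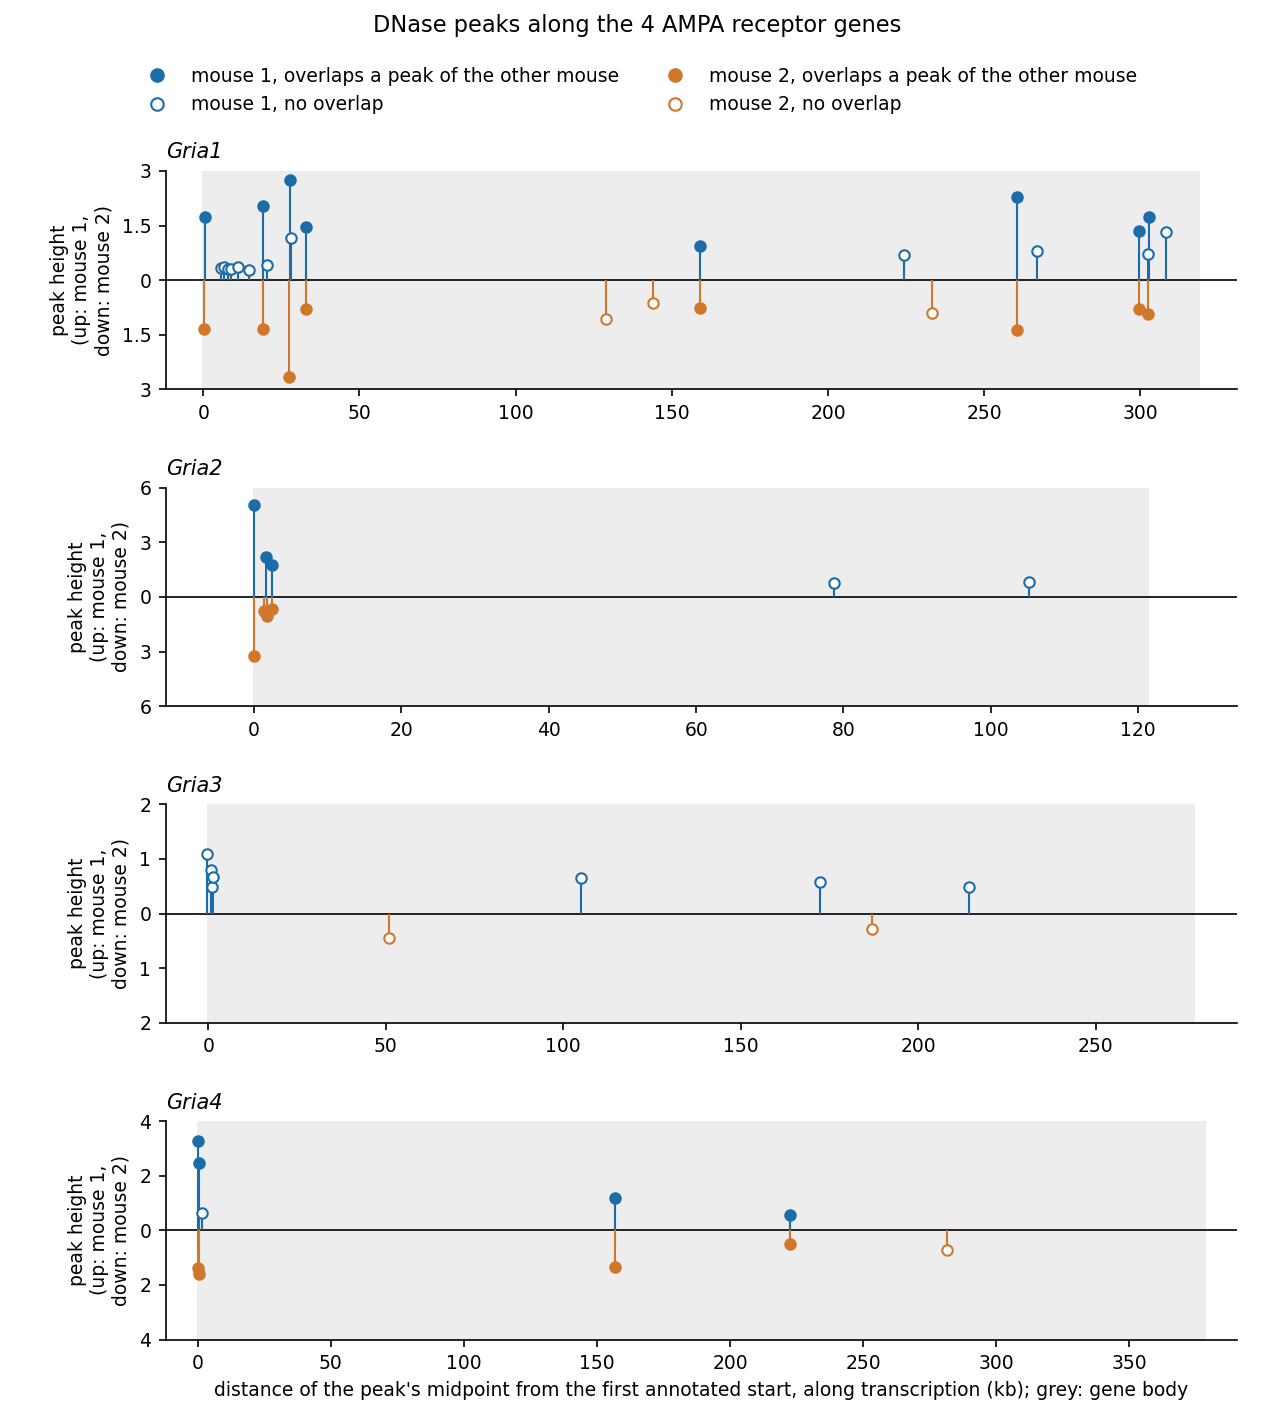
Each stem is a DNase peak, placed by the distance of its midpoint from the first annotated start along transcription (kb) and drawn to its height, upward for mouse 1 and downward for mouse 2, with filled points for peaks that both mice share. Filled points of Gria2 stand at the 5′ end, those of Gria4 at the 5′ end and in intron 4, those of Gria1 run from the 5′ to the 3′ end, and Gria3 has none.

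Gria2 had the highest promoter of the family. The gene (ENSMUSG00000033981.14) lies on the minus strand at chr3:80681450-80802835. Its start site, chr3:80802661-80803020, spans exon 1 and the bases just upstream, with 33 CpG and a GC content of 64.7%. Height there was 5.06 in mouse 1 and 3.23 in mouse 2, 4.14 ± 1.30 (SD, n = 2). Among coding genes with a promoter peak, meaning a peak that comes within 1 kb of a start, these values stood at percentiles 57.9 and 59.7, close to the middle in both mice. Further peaks lay in intron 2, the first at chr3:80800921-80801618 with heights of 2.17 and 1.06, and the second at chr3:80800261-80800680 with 1.77 and 0.654. Both were in each mouse, and mouse 2 had 2 separate peaks over the first. The remaining sites were in mouse 1 alone, in intron 5 with a height of 0.737 and in intron 12 with 0.806, and mouse 2 had no peak there in the longer list either. Gria2 thus had 5 peaks in mouse 1 and 4 in mouse 2. Coding genes of 0.8 to 1.25 times its length had medians of 5 and 4 (n = 1122 genes).

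The RE1 match stood at the upstream edge of the Gria2 start site, at chr3:80802989-80803008. RE1 was searched as its parts TTCAGCACC and GGACAGCGC with 2 bases between them and up to 3 mismatches over 18 bases. The match had 1 mismatch, C3T, with positions counted from 1 at its 5′ end. In mouse 1 a footprint covered 10 bases of it, including all 9 of GGACAGCGC, and in mouse 2 a footprint covered 7, including 6 of those 9. The peak of mouse 1, chr3:80802801-80803020, held the match, whereas that of mouse 2, chr3:80802661-80802940, ended 49 bp short of it, so the footprint of mouse 2 at the match lay outside its peak. Windows of 360 bp, the width of this start site, were drawn around the centre of all 83641 sites of the series. Of these, 155 held such a match, 0.185%, and of windows near a start 0.330% did. Among the 43 sites of the family it was the single one with an RE1 match.

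Gria1 differed in layout, with its highest peak inside the gene and not at its start in both mice. The gene (ENSMUSG00000020524.16) lies on the plus strand at chr11:57011387-57330244 and had 20 peaks in mouse 1 and 11 in mouse 2. Among all coding genes these counts stood at percentiles 98.9 and 97.7. Genes of like length had medians of 9 and 8 peaks and 95th percentiles of 26 and 17 (n = 364 genes), so Gria1 was above the median of such genes and inside their range in both mice. A single site came within 1 kb of a start, chr11:57011683-57011920 in exon 1. Its height was 1.74 in mouse 1 and 1.35 in mouse 2, 1.54 ± 0.274 (SD, n = 2), at percentiles 17.4 and 22.4 of coding genes with a promoter peak.

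The highest site of Gria1 in both mice was in intron 2, 27.6 kb downstream of the first start. Its height was 2.74 in mouse 1 and 2.66 in mouse 2, at percentiles 81.5 and 87.7 of all peaks. The ratio of mouse 2 to mouse 1 was 0.971 (exact 95% interval for counting error, 0.845 to 1.12), an interval that included 1. Over all sites of both mice the median ratio was 0.725 (quartiles 0.551 and 0.943). The ratio of this site was thus above the upper quartile. Intron 2 also held the E-box site 19.2 kb from the start, with heights of 2.04 and 1.33, and a site 32.9 kb from it, with 1.46 and 0.777. A further site of both mice in intron 2, 159 kb from the start, was lower, at 0.943 and 0.770. Beside the highest site, chr11:57039436-57039580 was listed in mouse 1 alone, with a height of 1.16, and had a height of 0.571 in the longer list of mouse 2.

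Toward the 3′ end of Gria1, further sites were open in both mice. Intron 11 held chr11:57271661-57272120, with heights of 2.27 and 1.36. Intron 14 held the CTCF core site, with 1.34 and 0.798, and the site with the RFX match, chr11:57313778-57314200, with 1.73 and 0.915. At each of these the peak of mouse 1 was the higher. Mouse 2 alone had peaks at 3 Gria1 sites, a pair in intron 2 with heights of 1.07 and 0.626 and the other in intron 11 with 0.887. All 3 were in the longer list of mouse 1, with heights of 0.762, 0.643 and 0.543. Of the sites of mouse 1 alone outside the cluster of low peaks, the others lay in introns 8, 11, 14 and 15, with heights from 0.687 to 1.34.

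A run of low peaks in mouse 1 made up much of the difference in count at Gria1. These were 7 peaks in intron 2 within 15.0 kb, chr11:57016827-57031855, with heights from 0.281 to 0.406, which correspond to 45 to 65 inferred cuts and to percentiles 2.62 to 4.79 of its peaks. No peak of mouse 2 overlapped them in either list. Of the 7, 5 held a footprint, against 42.3% of all peaks of mouse 1 under a height of 0.5. Without peaks under a height of 0.5, Gria1 had 13 peaks in mouse 1 and 11 in mouse 2. The excitatory neuron markers moved the same way. Their 4 genes had 69 peaks in mouse 1 and 12 in mouse 2, and their summed promoter height was 10.4 and 6.13. The sums were 2.05 and 1.07 for the inhibitory neuron list, 0.918 and 0 for astrocytes, 4.60 and 3.90 for oligodendrocytes, 1.90 and 1.24 for their precursors, and 1.51 and 0.929 for microglia. The part of cell makeup in the Gria1 count was not tested.

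Gria4 had 6 sites, of which 3 lay near its 5′ end and 3 in distant introns. The gene (ENSMUSG00000025892.16) lies on the minus strand at chr9:4417896-4796234 and had 5 peaks in each mouse, where genes of like length had medians of 9 and 8 (n = 300 genes). Its exon 1 site, chr9:4795841-4796300, had heights of 3.26 and 1.38. The adjoining site in intron 1, chr9:4795541-4795840, had 2.47 and 1.60. The highest promoter peak was thus the exonic one in mouse 1 and the intronic one in mouse 2. Promoter height was 2.43 ± 1.18 (SD, n = 2), at percentiles 36.7 and 28.7. Another site near a start, in intron 2, was listed in mouse 1 alone with 0.618, and had 0.392 in the longer list of mouse 2.

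Farther into Gria4, both mice had the AP-1 site in intron 4, 157 kb from the first start, with heights of 1.18 and 1.36. It was the only one of the 15 shared sites at which mouse 2 was the higher, and its ratio of 1.15 (0.936 to 1.41) had an interval that included 1. A second site of intron 4, chr9:4573626-4573920, had 0.575 and 0.488. The last site, chr9:4514521-4514800 in intron 6, was listed in mouse 2 alone, with a height of 0.722 and a lowest false discovery rate of 8.83e-14, and mouse 1 had neither a peak of the longer list nor a listed rate there.

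Gria3 had the lowest promoter height of the 4 genes in each mouse, and no site of it was listed in both. The gene (ENSMUSG00000001986.16) lies on the plus strand at chrX:41400854-41678601 and had 7 peaks in mouse 1 and 2 in mouse 2. Genes of like length had medians of 9 and 7 peaks and a 5th percentile of 2 in each mouse (n = 409 genes). In mouse 1, 4 peaks came within 1 kb of a start. The upstream site reached 1.09, the exon 1 site chrX:41401441-41401660 reached 0.806, and the peaks in intron 1 had 0.481 and 0.675. The promoter height of mouse 1 stood at percentile 8.93. Mouse 2 had no promoter peak in the shorter list. In its longer list, peaks of 0.592 and 0.516 overlapped the upstream and the exon 1 site, where its lowest false discovery rates were 0.00121 and 0.0166, and a peak of 0.626 lay at chrX:41403562-41403760. The Gria3 promoter was therefore cut in both mice and passed into the shorter list in mouse 1 alone.

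The other Gria3 sites were all low and intronic. Mouse 1 had 0.650 in intron 3, 0.587 at the intron 5 site shown above and 0.493 in intron 11, and mouse 2 had 0.454 in intron 2 and 0.275 in a 35 bp peak in intron 5. The intron 5 site shown above and the intron 11 site were also in the longer list of mouse 2, with heights of 0.261 and 0.351. Both mice are male and hold a single X chromosome. X-linked coding genes with a promoter peak had median heights of 2.15 in mouse 1 (n = 454) and 1.59 in mouse 2 (n = 407), against 4.40 and 2.65 for all coding genes, and 47.9% and 42.9% of 948 X-linked genes had such a peak. The part of the single X in the Gria3 values was not tested.

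In order of promoter height the genes ran Gria2, Gria4, Gria1 and Gria3 in both mice, with Gria3 listed in mouse 1 alone. The values of neighbours overlapped between mice in part. Gria4 in mouse 2, at 1.60, lay below Gria1 in mouse 1, at 1.74, and Gria2 in mouse 2, at 3.23, lay just below Gria4 in mouse 1, at 3.26. Within each mouse the exact counting intervals of Gria2 (4.72 to 5.42 and 2.94 to 3.53) lay above those of Gria4 (2.99 to 3.55 and 1.40 to 1.82). Those of Gria4 and Gria1 (1.54 to 1.95 and 1.17 to 1.55) were apart in mouse 1 and overlapped in mouse 2. Promoter height is a measure of cutting and not of transcript level, which was not measured.

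**Figure D2:**
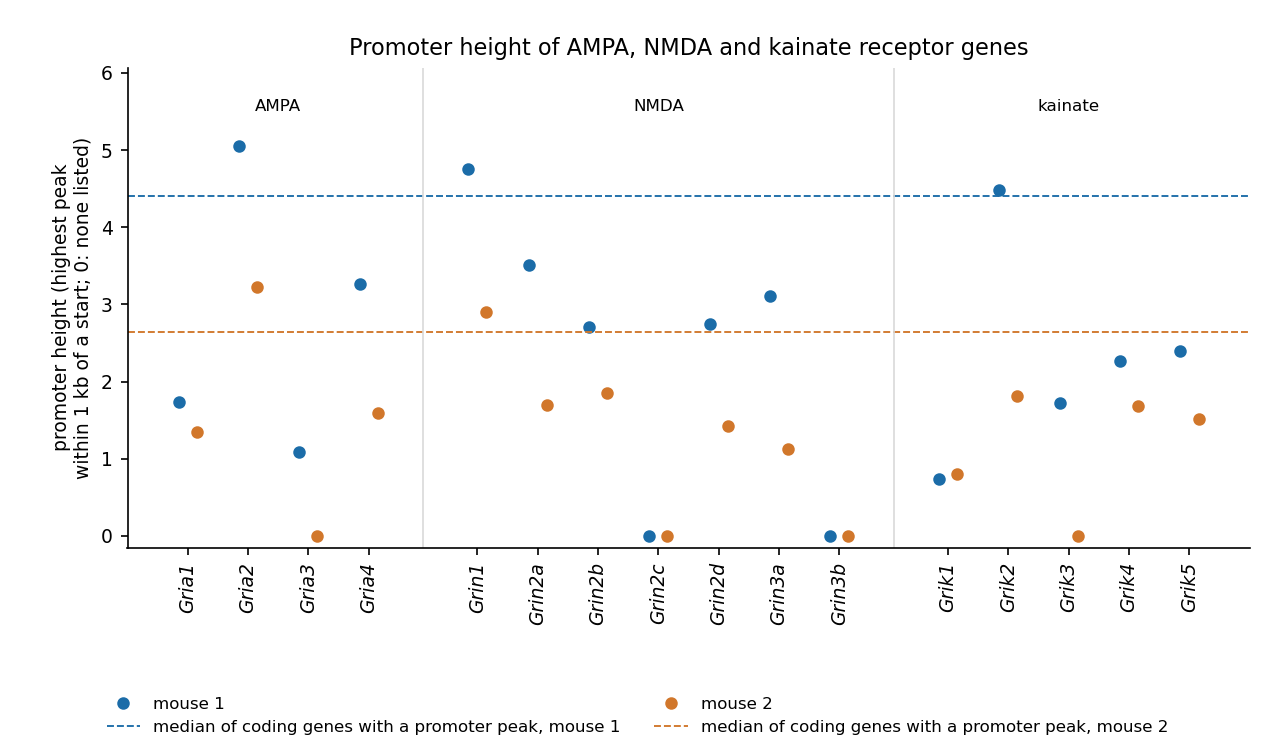
Promoter height, the highest peak within 1 kb of an annotated start with 0 where none is listed, is shown for the AMPA, NMDA and kainate receptor genes by family, with 1 point per mouse and dashed lines at the medians of coding genes with a promoter peak. Gria2 is the highest of all these genes in both mice and the only AMPA receptor gene above the dashed lines.

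Heights were lower in mouse 2 at nearly all shared sites of the family. Of the 15 sites of both mice, 14 were lower in mouse 2, and the ratio of mouse 2 to mouse 1 had a median of 0.638 and ran from 0.370 to 1.15. Over all 43925 sites of both mice the median was 0.725 (quartiles 0.551 and 0.943). At promoters the ratio was 0.777 (0.643 to 0.936) for Gria1, 0.638 (0.568 to 0.715) for Gria2 and 0.490 (0.418 to 0.572) for Gria4. The median over coding promoters was 0.604 (quartiles 0.469 and 0.779). These 3 values lay inside the quartiles. The Gria4 value sets different sites against each other, since its highest peak was in intron 1 in mouse 2 and in exon 1 in mouse 1. Site by site, its ratio was 0.422 (0.357 to 0.498) in exon 1, below the lower quartile of promoters, and 0.647 (0.548 to 0.763) in intron 1.

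**Figure D3:**
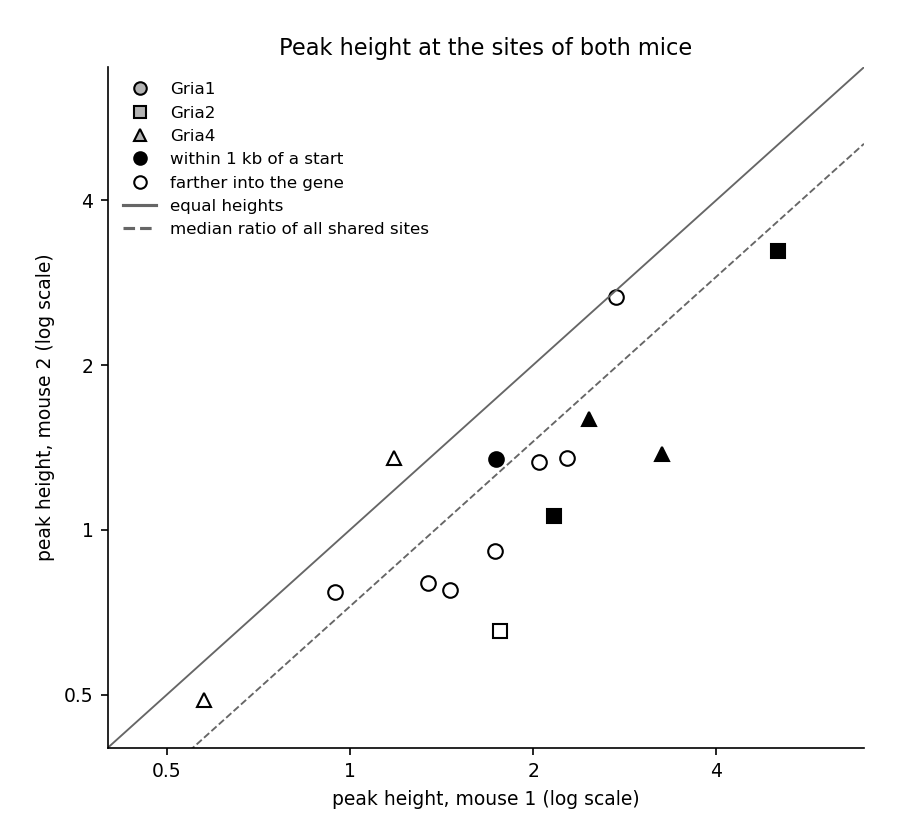
Peak height in mouse 2 is plotted against that in mouse 1, both on log scales, for the 15 sites of both mice, with symbols for the gene, filled where the site comes within 1 kb of a start, and lines at equal heights and at the median ratio of all shared sites, 0.725. The highest Gria1 site lies close to the line of equal heights, the AP-1 site of Gria4 lies above it, and the other 13 sites lie below it.

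Most peaks of the family held footprints. In mouse 1, 33 of 37 peaks held at least 1 footprint wholly inside, 89.2% (75.3% to 95.7%), against 83.1% of all its peaks, and the peaks held 96 footprints. In mouse 2, 20 of 22 did, 90.9% (72.2% to 97.5%), against 88.1% of all its peaks, with 54 footprints. Both intervals included the level of the library. Gria1 peaks held 41 and 24 footprints, Gria2 peaks 21 and 11, Gria3 peaks 17 and 1, and Gria4 peaks 17 and 18.

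At the sequences shown above, the footprints of both mice fell on the same bases to different degrees. At the highest Gria1 site both mice had a pair of wide footprints, and 46 bases in 2 runs, the longer of 25 bases, were covered in both. Neither run held a match to any searched pattern. At the CTCF core site 33 bases were covered in both mice, in 3 runs. The longest run, 19 bases, contains the match AGGTGGCAG, which reads on the strand opposite to the one printed. A match of the same form at the highest Gria1 site, AGGAGGCAG, had no base in a footprint of either mouse. CTCF is the zinc finger protein known for anchoring chromatin loops. At the RFX site the match GTTGCTATG, also on the opposite strand, was covered over all 9 bases in mouse 1 and over 8 in mouse 2. RFX proteins form a family of winged-helix transcription factors. The forms of the CTCF and RFX patterns matched here were added after the footprints had been seen. Their position in footprints is therefore no independent support for either factor.

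At the E-box site of Gria1 the letters CAGATG, a form of E-box bound by basic helix-loop-helix factors such as those of the neuronal lineage, lay wholly in a footprint of mouse 2 and with 3 of 6 bases in footprints of mouse 1. At the Gria4 AP-1 site the match TGAGTCA, the element of Fos and Jun proteins, was covered in part, over 2 of its 7 bases in mouse 1 and over 4 in mouse 2, where a footprint touched it on either side. The 13 bases in capitals there lie next to it and overlap its edge. At the Gria3 intron 5 site the footprint of mouse 1 covered a CAGATG on the opposite strand, and that of mouse 2 did not reach it. The 10 bases covered in both mice follow it. In the Gria3 upstream site 10 bases were covered in both mice, although mouse 2 had no peak of the shorter list there. Apart from the E-box site of Gria1, no CAGATG match inside a site had bases in footprints of both mice. The AP-1 matches in sites of Gria1 had no base in a footprint of either mouse.

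**Figure D4:**
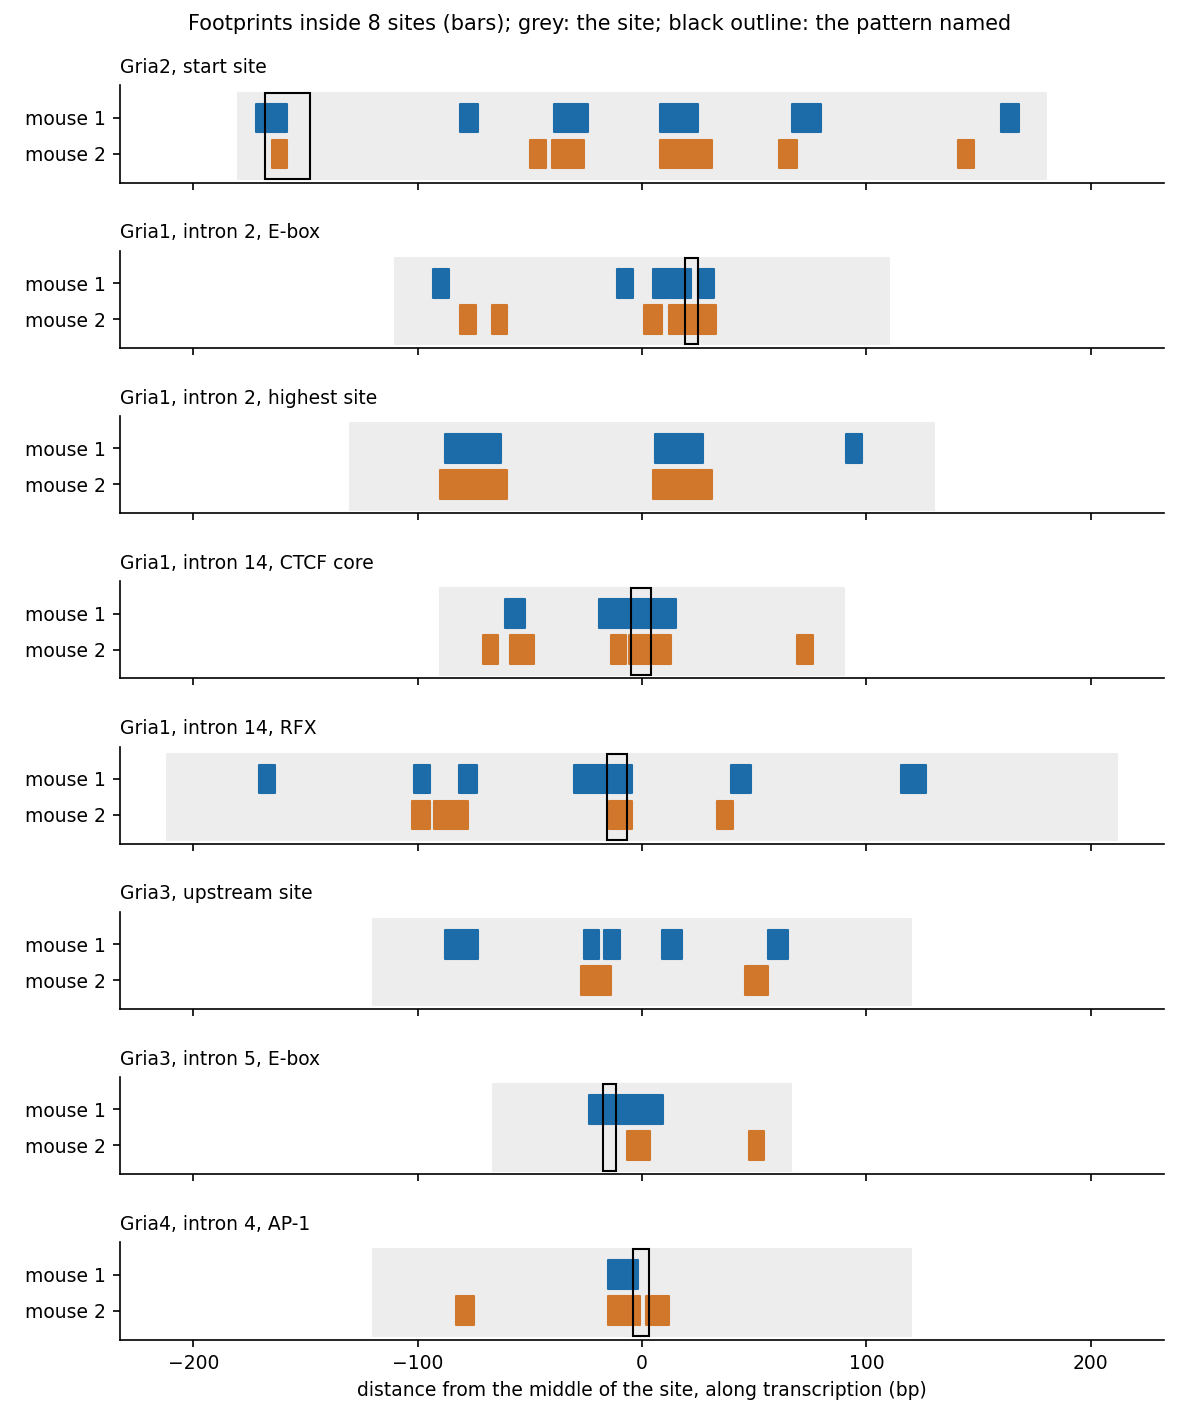
Bars mark the footprints of each mouse inside 8 sites, by distance from the middle of the site along transcription (bp), on a grey field for the site, with a black outline around the pattern named. At the highest Gria1 site both wide footprints recur in both mice, at the CTCF core and RFX sites a footprint of each mouse lies over the outline, and at the Gria2 start a footprint of mouse 1 crosses the upstream edge of the outline and a footprint of mouse 2 lies inside it. The patterns outlined at the CTCF core and RFX sites were added after the footprints had been seen.

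The patterns were common in part among open sites in general. In windows of 360 bp, CAGATG was in 13 of the 43 sites of the family and in 29.8% of all sites, CCAAT (NFY) in 16 and 35.1%, and TTGGCA (NFI) in 13 and 22.9%. TGANTCA (AP-1) was in 6 and 14.1%, and GGGCGG (SP and KLF) in 4 and 27.2%. TGCGCATGC (NRF1) was in 1 and 0.994%, and GTTGCCATG (RFX) in 1 and 1.37%. AGGNGGCGC (CTCF) was in none and 4.79%, TGACGTCA (CRE) in none and 1.13%, GCGNGGGCG (EGR) in none and 4.42%, and TATTTNTAG (MEF2) in none and 2.45%. Further forms of the CTCF and RFX patterns were added after the footprints had been seen. AGGNGGCAG (CTCF) was in 2 windows of the family and 7.14% of all, and GTTGCNATG (RFX), which takes in the other RFX letters, in 2 and 2.26%. Both strands were read, CCAAT and TTGGCA can share 4 bases, and a match is a string of letters only. The exon 1 site of Gria4, wider than the window, held GCGCGGGCG across the edge of the window, with 3 bases in a footprint of mouse 1 and 7 in one of mouse 2.

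Promoter peaks were counted in 63.5% of coding genes in mouse 1, in 58.4% in mouse 2 and in 57.7% in both. Of the AMPA receptor genes, 4 of 4 had one in mouse 1 and 3 of 4 in mouse 2. The genes of the NMDA and kainate receptors were described the same way. Of these 12 genes, 10 had a promoter peak in mouse 1 and 9 in mouse 2. In the NMDA family, receptors that pass calcium when glutamate coincides with depolarisation, Grin1, the obligatory subunit, was highest at 4.75 and 2.90, and neither Grin2c nor Grin3b had a promoter peak in either mouse. In the kainate family Grik2 was highest at 4.48 and 1.82, Grik1 lowest of those in both mice at 0.737 and 0.798, and Grik3 was listed in mouse 1 alone at 1.72. Gria2, at 5.06 and 3.23, was above every one of these genes in each mouse. Counting intervals were not computed for the NMDA and kainate genes, so its lead over Grin1 is not said to exceed counting error. Gria3, like Grik3, was listed in mouse 1 alone.

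Genes whose proteins act with AMPA receptors had promoter peaks in nearly all cases in mouse 1. Of 33 such genes, 32 had one in mouse 1 (97.0%), 25 in mouse 2 and the same 25 in both (75.8%). Their median promoter height, with 0 for none, was 3.09 and 1.14, against 2.05 and 1.04 for all coding genes. The latter medians are lowered by the many coding genes entered as 0. Among coding genes with a promoter peak the medians were 4.40 and 2.65, above those of the partner genes. A promoter peak was listed in mouse 1 alone at 7 genes, and at none in mouse 2 alone. Of all coding genes, 63.5% had one in mouse 1, 58.4% in mouse 2 and 57.7% in both. In the longer list 33 of the partner genes had one in mouse 1 and 31 in mouse 2, so listing in 1 mouse depended on the list. The 7 genes were auxiliary subunits and pentraxins. The cornichons Cnih2 and Cnih3, auxiliary proteins that slow channel closing, had 3.04 and 2.10 in mouse 1. Gsg1l, an auxiliary subunit, had 2.30, Shisa6 had 1.53 and Shisa8 had 0.924. Nptx1 and Nptxr, pentraxins that gather receptors at synapses, had 3.51 and 3.56. Nptx1 had 5 peaks in its window in mouse 1 and none in mouse 2.

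Among the TARPs, auxiliary subunits that traffic the receptor and shape its gating, Cacng2 (stargazin) had the highest mean, with 3.09 and 2.17, although Cacng3 was higher in mouse 1, at 3.69. The lowest with a peak was Cacng4, at 1.21 and 0.647, and Cacng5 had none in either mouse. Among the other auxiliary genes Shisa7 had the highest mean, with 4.57 and 4.35, 4.46 ± 0.154 (SD, n = 2), although Prrt1 reached 4.60 in mouse 1. Of genes that act on receptor assembly in the endoplasmic reticulum, all 5 had a promoter peak in both mice. Sacm1l, a phosphoinositide phosphatase, was highest in each, at 8.21 and 6.91. Porcn had the lowest mean, with 2.37 and 1.63, although Frrs1l was lower in mouse 2, at 1.11.

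Of genes for anchoring and trafficking, all 8 had one in both mice. Grip1, a PDZ scaffold that binds the receptor tail, had the lowest mean, with 1.53 and 0.674, although Gripap1 was slightly lower in mouse 1, at 1.52. Pick1, also a PDZ protein of that tail, was highest in each mouse, at 8.17 and 8.45. The Pick1 value came from an internal annotated start, 14.1 kb from the first, where the highest peak of mouse 1 near the first start had 4.03. At 6 of the 32 partner genes the highest peak of mouse 1 lay over 1 kb from the first start. Among them, Grip2 and Dlg4 had no peak of mouse 1 within 1 kb of the first start. Prrt1 had 1.74 there. Of the pentraxins, Nptx2 was listed in both mice, at 4.08 and 1.64. Of the adenosine deaminases, Adar had 5.32 and 4.84, and Adarb1, whose product edits the Gria2 transcript, had 4.57 and 2.11.

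**Figure D5:**
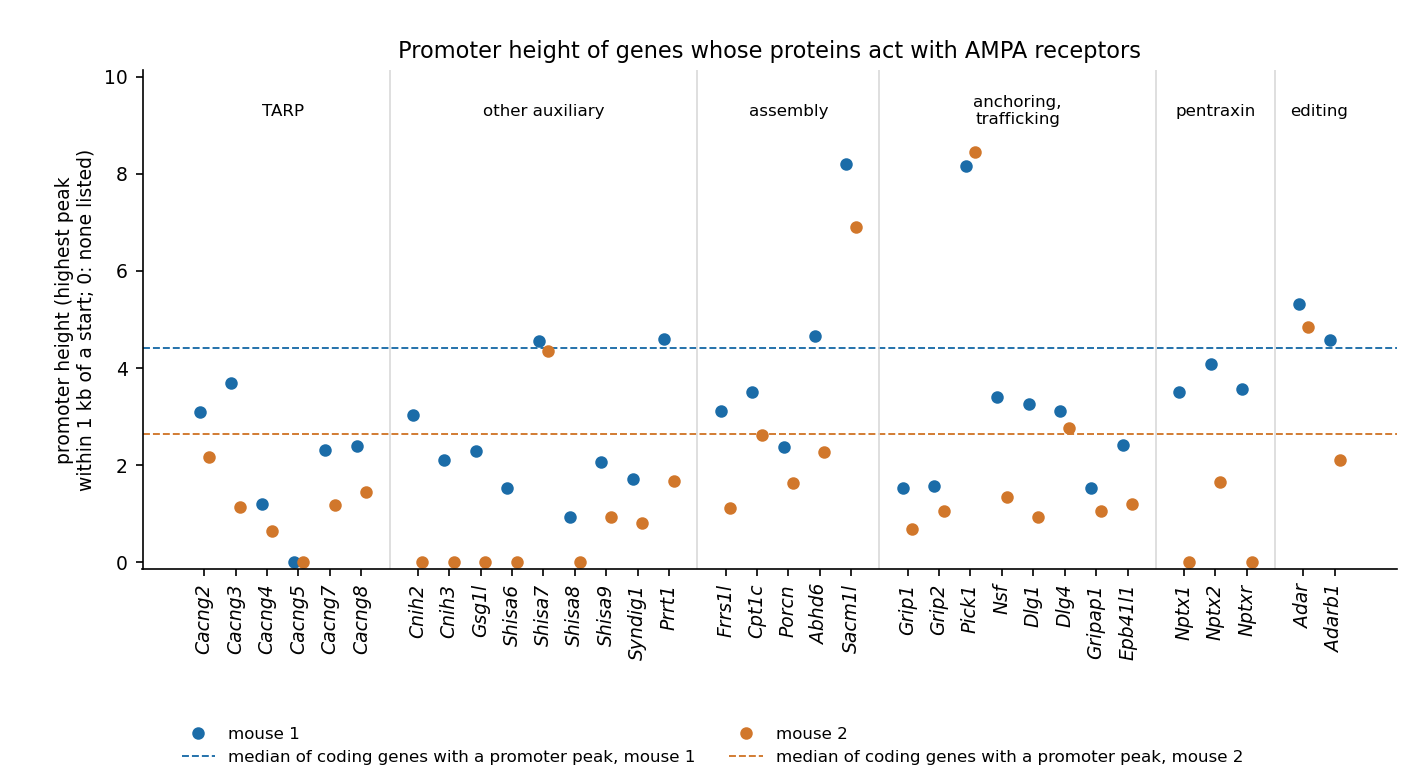
Promoter height of the 33 partner genes, grouped by role, is shown with 1 point per mouse, 0 where no promoter peak is listed, and dashed lines at the medians of coding genes with a promoter peak. The points of mouse 2 at 0 with mouse 1 above them are the 7 genes listed in mouse 1 alone, and Cacng5 is at 0 in both.

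Genes with the most similar values were found by distance in 4 values, log2(1 + promoter height) and log2(1 + number of peaks) in each mouse, among the 12548 coding genes with a promoter peak in both mice. For Gria1 they were Cacnb4 (distance 0.278) and Dgkg (0.327), with 21 and 9 peaks at Cacnb4 and 18 and 12 at Dgkg. For Gria2 they were Hdac3 (0.0259) and Syvn1 (0.0435), and for Gria4 Pcnx (0.0112) and Txnrd3 (0.0445). For Gria3 they were Bnc2 (0.528) and Dock8 (0.668). Gria3 had no promoter peak in mouse 2 and every candidate had one, which adds to these distances, so they are not comparable with those of the other members. The 4 values of a gene come from 2 libraries, and the distances rest on those alone.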

How the data were processed

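DNase-seq was made from left cerebral cortex of 2 mice, 1 library each, whose labels number separate animals but give the same donor label. The deposited lists of peaks carry 1 signal value for every peak, called its height here, and no source states how the authors normalized it. Heights were whole multiples of 1 step per library (100% within 0.02 of a step), and depth was inferred from that step, so comparison of heights between mice rests on reading them as cuts scaled to depth. The deposited cut rate lists give an adjusted p-value (false discovery rate), listed only up to 0.05. The deposited footprint lists give a constant score of 0.01, so only footprint positions were used. The build is mm10 (GRCm38), per the labels. For the aligner and the peak caller a name was not given in the sources used here.

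Peaks of both mice were merged into sites where they overlapped by 1 bp or more, 83641 in all. Genes and starts came from GENCODE M21, on chromosomes 1 to 19 and X. Coordinates are 1-based. Named genes were the 4 members, and in each other list the highest and lowest by mean promoter height and those listed in 1 mouse or neither, and for likeness the 2 nearest genes. With 1 group of 2 mice no test was made. Values are a mean ± SD, Wilson intervals for shares, or exact intervals for counting error only, and the spread between mice may be technical. Members, lists and patterns were chosen with earlier results of these data known. Alternatives were the longer list, the higher 50% of peaks, other windows and overlaps, no scaling to depth and leaving out a mouse. Scripts were tested on simulated data. Python 3.11.15, NumPy 2.4.6, pandas 2.3.3, SciPy 1.17.1, pysam 0.24.0 and matplotlib 3.10.9 were used. Signal tracks and reads were not used here. 1 item among the other receptor genes is not reported here.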

Additional observations from a re-analysis of the deposited data

How the results depend on the processing

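Counts of peaks depended on the list. The mean over the mice at the 4 genes was 29.5 in the shorter list, 63 in the longer list and 12 in the higher 50% of peaks, and ran from 22 to 37 when a mouse was left out. The share of peaks with a footprint, 90.0%, was 71.9% in the longer list, 100% in the higher 50%, 92.3% when an overlap of 1 bp sufficed, and 95.6% without peaks under a height of 0.5, a limit chosen after the data were seen. Of 31 values of the main measures under settings other than leaving out a mouse, 25 stayed within 1.5 times (counts) or within 1 SD of the mice (other values). With 2 mice that SD is wide, and a mean without 1 mouse always stays within it, so leaving out a mouse says nothing about heights or shares. For the share of peaks in both mice, the SD comes from the same overlap of 2 lists and is no spread between mice. The longer list gave Gria3 a promoter peak in mouse 2 and moved its mean promoter height, with 0 for none, from 0.547 to 0.860. Gria3 kept no peak in the higher 50%, and without peaks under 0.5 it had 5 and 0. Taking the ratio of inferred cuts with no scaling to depth gave 0.705, 0.579 and 0.444 at the promoters of Gria1, Gria2 and Gria4, each within its counting interval. No paired analysis was possible because both mice belong to 1 group. The lists hold no value under their threshold.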
